A study of Mus musculus with 27 samples.

Results

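The Thbs4/Cilp/Myoc fibroblasts were 551 cells of mouse back skin, 319 in mouse 1 and 232 in mouse 2, out of 28373 cells kept in 2 single-cell RNA-seq libraries. They were chosen by measured values of these same cells. A kept cell had at least 500 genes, at least 1000 UMIs (unique molecular identifiers, each the tag of 1 captured RNA molecule) and under 10% mitochondrial UMIs. A fibroblast had at least 1% of its UMIs in Col1a1, Col1a2, Col3a1 and Dcn, under 0.1% in Krt5 and Krt14, and fewer than 5 UMIs of the interferon-induced genes Isg15, Ifit1, Ifit3 and Cxcl10. A member was a fibroblast with 3 or more UMIs of Thbs4, Cilp and Myoc together, from at least 2 of these 3 genes. Members made up 5.41% of 5892 fibroblasts in mouse 1 (exact Clopper-Pearson 95% interval 4.85 to 6.02%) and 5.57% of 4163 in mouse 2 (4.9 to 6.31%), so their share of fibroblasts differed between the mice by less than counting error. Of all kept cells they made up 2.21% in mouse 1 (1.97 to 2.46%) and 1.67% in mouse 2 (1.46 to 1.89%), intervals that did not overlap. The intervals in the text cover counting error alone.

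Each library came from 1 wild-type, untreated mouse in the sixth anagen stage of the hair cycle (AnaVI), at postnatal day 32. The rest of the series profiles RNA, chromatin and single cells of cultured hair follicle stem cells (HFSCs). The libraries held 145318618 UMIs in 16521 barcodes for mouse 1 and 167258677 UMIs in 16068 barcodes for mouse 2. According to the study's methods, cells positive for CD45, CD31, CD140a or CD117 were depleted by cell sorting; CD140a is the protein of Pdgfra, a general fibroblast marker. Members nonetheless carried Pdgfra mRNA at 416 and 471 CPM (counts of the gene scaled by the total UMIs of the summed cells) in mice 1 and 2, beside 293 and 402 CPM in the other fibroblasts. Whether that depletion acted on these 2 libraries as described could not be settled from the sources used here, so shares of cells describe the deposited libraries and not the dermis. Ptprc, which encodes CD45, was at 1 UMI in the members of mouse 1 and at 0 in mouse 2, and the endothelial gene Pecam1 was at 2.1 and 2.49 CPM.

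Dermal fibroblasts secrete the collagens, elastic fibers and proteoglycans of the skin and signal to the hair follicle through WNT, BMP and FGF ligands and their inhibitors. Thbs4 (thrombospondin 4) is a pentameric glycoprotein of tendon, muscle and connective tissue matrix. Cilp (cartilage intermediate layer protein) is a matrix protein that binds TGFβ, and Myoc (myocilin) is a secreted olfactomedin-domain protein best known from the trabecular meshwork of the eye. Mgp (matrix Gla protein) inhibits calcification, and Angptl1 is a secreted angiopoietin-like protein.

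The 3 genes that defined the cells lie on different chromosomes of GRCm38, the build of the deposited counts. Thbs4 spans chr13:92751590-92794818 on the minus strand, Cilp chr9:65265180-65280605 on the plus strand and Myoc chr1:162639155-162649693 on the plus strand, all as protein-coding genes. The 250 bases before each RefSeq transcription start (GRCm38.p6) are shown because these genes were counted together in the rule. Capitals mark matches, on either strand, to any of 5 motifs searched. The core promoter box was searched as TATAAA, the motif of AP-1 factors as TGANTCA, that of nuclear receptors as AGGTCA, that of TEAD factors as GGAATG and the E-box as CAGCTG.
Thbs4, chr13:92794819-92795068, minus strand: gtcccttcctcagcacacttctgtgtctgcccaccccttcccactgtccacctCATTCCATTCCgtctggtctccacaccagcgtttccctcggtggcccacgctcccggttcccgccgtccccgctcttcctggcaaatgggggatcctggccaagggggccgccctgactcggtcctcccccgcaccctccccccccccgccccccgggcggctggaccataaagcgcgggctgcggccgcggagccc
Cilp, chr9:65264930-65265179, plus strand: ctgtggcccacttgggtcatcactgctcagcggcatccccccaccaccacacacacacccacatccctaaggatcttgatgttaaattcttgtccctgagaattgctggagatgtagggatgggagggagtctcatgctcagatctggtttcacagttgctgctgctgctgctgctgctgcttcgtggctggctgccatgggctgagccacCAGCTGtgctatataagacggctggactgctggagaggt
Myoc, chr1:162638900-162639149, plus strand: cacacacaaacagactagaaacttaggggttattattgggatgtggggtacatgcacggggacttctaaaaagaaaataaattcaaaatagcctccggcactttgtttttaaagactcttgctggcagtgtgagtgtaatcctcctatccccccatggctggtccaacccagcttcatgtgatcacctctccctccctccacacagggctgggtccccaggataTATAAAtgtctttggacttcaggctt
No motif was found before all 3 genes. Thbs4 had GGAATG on the opposite strand 197 and 192 bases before its start, Cilp had CAGCTG 39 bases before its start and Myoc had TATAAA 26 bases before its start. Among 27025 RefSeq promoters of this length, 12.6% held GGAATG, 12.8% CAGCTG and 13% TATAAA. A match is a description of the letters and not a site of binding.

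The 2 libraries differed in the cells around the members and thus in what each comparison set held. In mouse 1, 617 cells passed the collagen and keratin steps with 5 or more interferon-gene UMIs (9.48%), against 2620 in mouse 2 (38.6%). Among other fibroblasts, 48.9% in mouse 1 and 19% in mouse 2 were Pi16-type, defined by 3 or more UMIs of Pi16, Dpp4 and Sema3c from at least 2 of these genes and failing the same step for H19, Adam12 and Postn. Cells with the reverse pattern, here called H19-type, made up 14% in mouse 1 and 34.2% in mouse 2. The libraries shared 62 barcodes, none of them carried by a member in both. Members had a median of 9507 UMIs and 3268 genes in mouse 1 and of 11506 UMIs and 3562 genes in mouse 2, while other fibroblasts had medians of 8959 and 10749 UMIs. The median mitochondrial share in members was 2.87% and 2.86%.

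Values of the 3 rule genes are given as a description, since they chose the cells. In the summed UMIs of members, Thbs4 was at 544 CPM in mouse 1 and 1093 CPM in mouse 2, against 2.96 and 6.37 CPM in other fibroblasts. Cilp was at 843 and 1101 CPM against 74.7 and 69.5 CPM. Myoc was at 391 and 283 CPM against 5.61 and 2.06 CPM. Cilp UMIs were thus also found in many other fibroblasts. At full depth, 98.7% and 94.8% of members had a Cilp UMI, while 42% and 65.9% had a Thbs4 UMI and 78.7% and 69% a Myoc UMI. In keratinocytes, cells with at least 1% Krt5 and Krt14 UMIs and under 0.5% of the collagen genes, which should lack all 3, the summed UMIs were 2 Thbs4, 10 Cilp and 5 Myoc of 1452246 in 200 cells of mouse 1 and 6, 6 and 2 of 1555450 in 145 cells of mouse 2. After each cell was thinned to 3000 UMIs, Cilp was seen in 82.8% of members in each mouse, in 10.7% and 10.8% of other fibroblasts, and in 2.08% and 0.694% of keratinocytes.

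A member carried a median of 14 trio UMIs in mouse 1 (3 to 111) and 17 in mouse 2 (3 to 330). The combination of Cilp and Myoc without Thbs4 was the most frequent in both mice, with 185 members in mouse 1 (58%) and 79 in mouse 2 (34.1%). Thbs4 with Cilp made up 68 and 72 members, all 3 genes together 62 and 69, and Thbs4 with Myoc without Cilp 4 and 12. Over members thinned to 3000 UMIs, Thbs4 and Cilp UMIs had a Spearman rho of 0.26 in 314 cells of mouse 1 and 0.38 in 232 cells of mouse 2. Thbs4 and Myoc had a rho of -0.28 and 0.06. These values describe cells already required to hold 2 of the genes.

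Just inside the limit, 23 members in mouse 1 and 14 in mouse 2 had exactly 3 trio UMIs, with Mgp at 248 and 211 CPM and Hmcn2 at 115 and 167 CPM. Just outside it, 37 and 31 fibroblasts had 2 UMIs from 2 of the genes, with Mgp at 133 and 289 CPM and Hmcn2 at 151 and 58.2 CPM. Mgp and Hmcn2 overlapped between the 2 sides of the limit, and Col8a1 had too few UMIs to compare there, 3 and 3 inside and 25 and 2 outside. Angptl1, at 119 and 172 CPM inside against 69.7 and 102 CPM outside, did not, but these values rested on 26 and 31 UMIs inside and 31 and 44 outside. Smoc2 was at 289 and 128 CPM against 126 and 116 CPM, close in mouse 2, where the inside value rested on 23 UMIs. A larger set failed because its UMIs came from a single gene: 383 fibroblasts in mouse 1 and 277 in mouse 2 had 3 or more Cilp UMIs with neither Thbs4 nor Myoc.

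**Figure D1:**
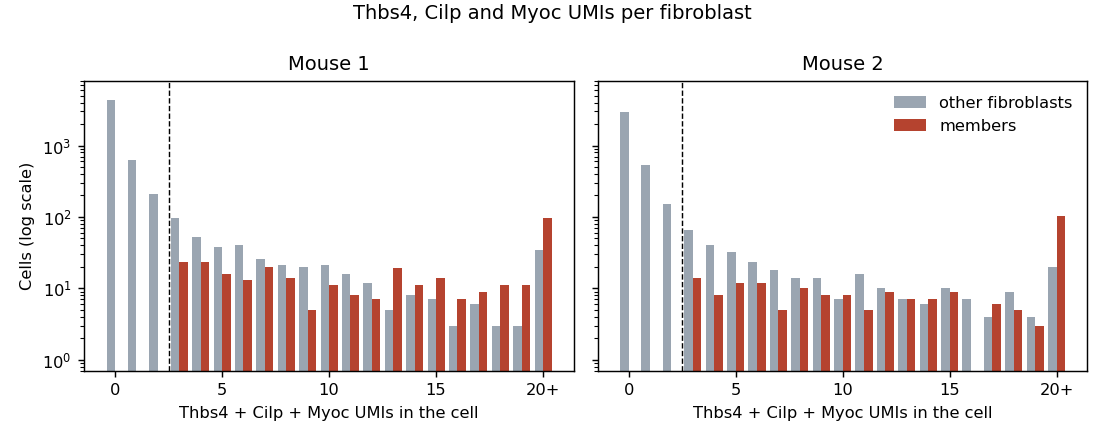
Number of fibroblasts (log scale) by the summed UMIs of Thbs4, Cilp and Myoc in the cell, for each mouse, with 20 or more pooled in the last bar; members in red, other fibroblasts in gray, and the limit of 3 UMIs as a dashed line. Fibroblasts at 0 UMIs numbered 4326 in mouse 1 and 2935 in mouse 2, and gray bars right of the line are cells whose UMIs came from a single gene.

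Outside the genes of the rule, Col8a1, Adamtsl2, Bmp5 and Hmcn2 had the highest folds of members over other fibroblasts among the genes named, and Car3 the lowest. For this and the following comparisons UMIs were summed per mouse, and a gene was counted as higher when its CPM was at least 2-fold higher in both mice and the member values of the 2 mice did not overlap the others. Of 6724 genes with a mean of 20 CPM or more, 79 were higher in members (1.17%) and 77 were lower (1.15%). No test was made and nothing is read from these percentages, because the members were chosen from the same cells. Across the 6724 genes the log2 fold had a Pearson r of 0.70 and a Spearman rho of 0.50 between mice, with genes as points that are not independent replicates.

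Several of the 15 genes with the highest folds encode matrix proteins. Col8a1, a short-chain collagen, was at 163 CPM in the members of mouse 1 (exact Poisson 95% interval 149 to 177) and 303 CPM in mouse 2 (283 to 324), against 8.4 and 7.07 CPM in other fibroblasts, a geometric mean fold of 28.8. Hmcn2 (hemicentin 2), a very large basement membrane-associated protein, was at 441 and 664 CPM against 33.8 and 48.1 CPM (13.4-fold). Both member values lay far above both others for each gene. Adamtsl2, a fibrillin-binding regulator of TGFβ, was at 75.1 and 68.6 CPM against 4.78 and 3.93 CPM (16.6-fold). Smoc2, a calcium-binding matricellular protein, was at 547 and 535 CPM against 87.9 and 89.9 CPM (6.09-fold), nearly the same in the 2 mice. Mgp was at 565 and 787 CPM against 139 and 213 CPM (3.88-fold). C1qtnf3, a secreted C1q/TNF-related protein, was 4.29-fold higher.

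Members also carried more RNA of several secreted ligands and of receptors. Angptl1 was at 363 and 488 CPM against 58.2 and 52.6 CPM (7.61-fold). Its relative Angptl7 was at 70 and 59.8 CPM against 4.87 and 6.06 CPM (11.9-fold), and Angpt4, a ligand of the endothelial receptor TIE2, at 93.2 and 23.1 CPM against 18 and 3.66 CPM (5.72-fold). The level of Angpt4 thus differed widely between the mice while its fold did not. Bmp5, a bone morphogenetic protein, was at 56.8 and 113 CPM against 5.31 and 6.64 CPM (13.5-fold). Ccn2 (connective tissue growth factor) was 5.23-fold higher, at 61 and 158 CPM in members. Gfra1, a coreceptor for the neurotrophic factor GDNF, was at 106 and 64.7 CPM against 15.1 and 9.78 CPM (6.82-fold), and the semaphorin coreceptor Plxna4 was 5.27-fold higher. The homeobox factor Meox1, at 57.1 and 74.3 CPM against 5.72 and 8.03 CPM (9.62-fold), was the transcription factor with the highest fold among the fixed list. The postsynaptic scaffold gene Frmpd4 (13-fold) and the lipid transporter gene Abca8b (5.34-fold) completed the 15 highest. Abca8b belongs to a family of related ABC transporter genes, and Abca8a (509 and 1103 CPM against 152 and 357 CPM) moved with it. Abca9 was also counted as higher (log2 folds of 1.162 and 1.436), while Abca6 (0.196 and 0.639) and Abca5 (-0.437 and -0.411) were not. How UMIs were split between Abca8a and Abca8b was not tested and is uncertain.

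**Figure D2:**
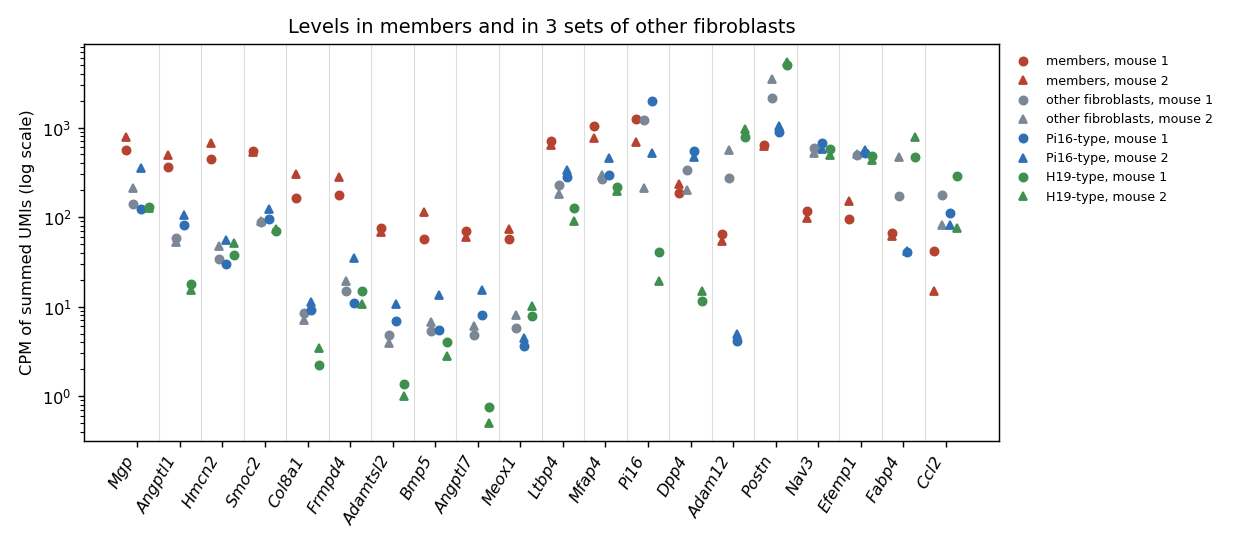
CPM of summed UMIs (log scale) of 20 genes in members, other fibroblasts, Pi16-type and H19-type cells; circles are mouse 1 and triangles mouse 2, and no error bars are drawn. From Mgp to Mfap4 the red points of both mice lie above every other point, while for Nav3, Efemp1 and Ccl2 they lie below; Col8a1 in members was at 163 and 303 CPM.

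The genes lower in members included adipocyte genes, chemokine genes and genes of the H19-type cells. Car3, a carbonic anhydrase abundant in adipocytes, had the lowest fold among the 10 named, at 6.01 and 24.5 CPM in members against 41.7 and 201 CPM (7.55-fold lower). Cd36, a fatty acid transporter, was 5.84-fold lower. St6galnac3, a sialyltransferase gene (6.78-fold), and Gramd1b, a sterol transporter gene (6.66-fold), were lower with wider gaps in mouse 2. Adam12, a membrane metalloprotease of growing mesenchyme, was at 65.2 and 54.4 CPM against 272 and 558 CPM (6.54-fold lower). Akr1c18, a steroid-metabolizing reductase, was 5.56-fold lower, Nav3 (neuron navigator 3) 5.17-fold, Map2 4.98-fold, the heparin-binding growth factor gene Ptn 4.86-fold and the monocyte chemokine gene Ccl2 4.74-fold. Nav3 was nearly equal in the 2 mice, at 116 and 98.5 CPM in members against 589 and 518 CPM. The red cell genes Hba-a1 (55.6 and 46.6 CPM against 347 and 148 CPM) and Hbb-bs were among the lower genes; the part of free RNA in this was not tested.

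**Figure D3:**
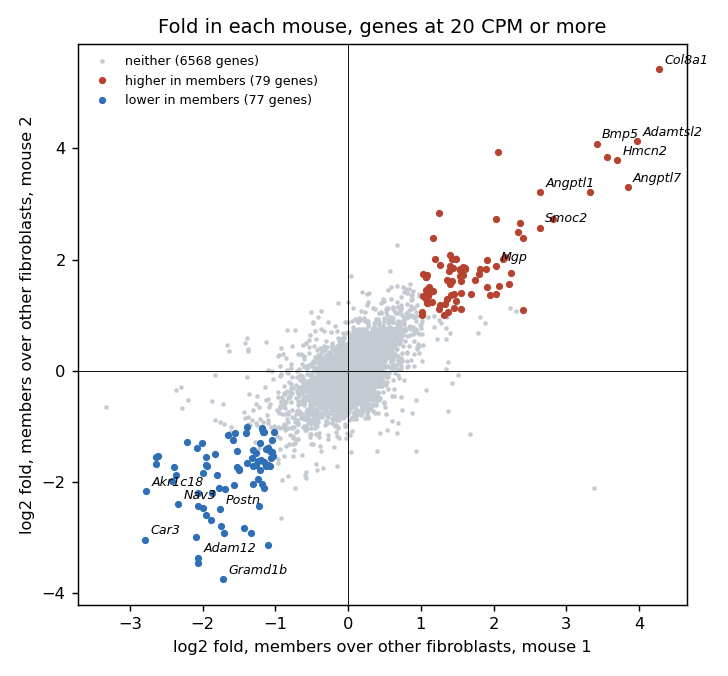
Log2 fold of members over other fibroblasts in mouse 1 (horizontal) and mouse 2 (vertical), each point a gene with a mean of 20 CPM or more, with the 79 higher genes in red and the 77 lower genes in blue. Col8a1 lies at the top right with 4.28 and 5.42, and Car3 at the bottom left with -2.80 and -3.04.

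The genes with the most UMIs in members were shared with other fibroblasts. Outside mitochondrial and ribosomal protein genes these were Gm42418, Malat1, Col3a1, Col1a2, Sparc, Col1a1, Gsn, Dcn, Tpt1 and Fth1. Gm42418 overlaps ribosomal RNA, so its 53133 and 73950 CPM may hold rRNA reads. Col1a1, at 6824 and 10580 CPM in members against 9624 and 13329 CPM, and Col1a2, at 10313 and 14999 CPM against 12863 and 17695 CPM, were lower by less than 2-fold in each mouse, with values that overlapped across mice. Gsn, encoding the actin-severing protein gelsolin, was 2.23-fold higher on average, but its fold in mouse 1 (1.79) missed the limit. Over 11 pan-fibroblast genes, 4 of which the rule used, none of the 7 measured was counted as different and their median log2 fold was -0.08, beside -0.03 over all measured genes. Vim was at 1606 and 2320 CPM in members and Lum at 977 and 1293 CPM.

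The matrix genes were then counted by list. Of 20 collagen genes, 15 had at least 20 CPM outside the rule genes, of which Col8a1 was higher and Col18a1 and Col27a1 were lower, with a median log2 fold of 0.37. The collagen VI genes Col6a1, Col6a2 and Col6a3 were above the other fibroblasts in both mice but below 2-fold, with Col6a3 at 1328 and 1434 CPM against 896 and 773 CPM. Col6a6, a further collagen VI gene that is in no list and was chosen after its values were seen, was counted as higher, at 236 and 221 CPM against 68.1 and 66 CPM. Also outside the collagen list, Col13a1 (log2 folds of -1.435 and -2.817) and Col23a1 (-1.063 and -1.572) were counted as lower. The basement membrane collagen Col18a1 was at 60.1 and 80.7 CPM against 138 and 245 CPM. Of 21 matricellular and Gla proteins, 16 were measured, 6 were higher (Mgp, Smoc2, Ccn2, Sparcl1, Fbln2 and Fbln7), 1 was lower (Postn) and the median was 0.77. Fbln2, a fibulin that links elastic and basement membrane components, was at 934 and 836 CPM against 421 and 355 CPM. Postn, encoding periostin, was at 633 and 620 CPM against 2151 and 3466 CPM.

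Small leucine-rich proteoglycans bind collagen fibrils and set their spacing. Of 12 genes in that list, 7 were measured outside the rule gene Dcn, and Prelp, Aspn and Podn were higher (median log2 fold 0.87). Aspn (asporin) was at 683 and 962 CPM against 324 and 353 CPM, and Podn (podocan) at 126 and 151 CPM against 35.7 and 42.3 CPM. Lum was not, at 977 and 1293 CPM against 1266 and 1630 CPM. Of 16 elastic fiber genes, 15 were measured. Mfap4, a microfibril-associated protein, was at 1033 and 759 CPM against 266 and 296 CPM, and Ltbp4, which anchors latent TGFβ and guides elastin assembly, at 698 and 641 CPM against 229 and 179 CPM. Efemp1 (fibulin 3), at 94.4 and 153 CPM against 498 and 508 CPM, and Ltbp1, at 70.6 and 71.8 CPM against 175 and 191 CPM, were lower, so 2 genes of this list were higher and 2 were lower (median log2 fold 0.35). Eln itself, at 1364 and 1296 CPM against 905 and 531 CPM, fell short of 2-fold in mouse 1. Among 18 matrix proteases and inhibitors, 17 were measured, none was higher, and Mmp3 and Timp1 were lower, with Timp1 at 55.9 and 54.8 CPM against 132 and 168 CPM.

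Relatives of the rule genes were measured next. Of the 5 thrombospondins, Thbs1, Thbs2 and Thbs3 were measured besides Thbs4, and none was counted in either direction: Thbs3 was at 148 and 108 CPM against 80.3 and 55 CPM and Thbs2 at 201 and 142 CPM against 469 and 224 CPM. Of 7 olfactomedin-family genes, 4 were measured besides Myoc, all with log2 folds above 0 and none at 2-fold in both mice (median 0.30). Of 8 angiopoietin genes, 6 were measured and 4 were higher (Angpt1, Angpt4, Angptl1 and Angptl7), with a median log2 fold of 2.11. Angpt1 was at 133 and 129 CPM against 35.4 and 45.7 CPM. Angptl4, a lipoprotein lipase inhibitor induced by fasting and hypoxia, was below the other fibroblasts, at 42.1 and 52.3 CPM against 82.5 and 158 CPM, without reaching 2-fold in mouse 1.

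Genes of the signaling pathways that act on hair follicles were mixed. In the BMP and TGFβ list, 17 of 29 genes were measured, and the ligands Bmp4 and Bmp5 and the TGFβ-induced matrix gene Tgfbi were higher while the ligand Gdf10 was among the lower. Bmp4 was at 55.6 and 67.6 CPM against 26.5 and 21.1 CPM, and Tgfbi at 134 and 188 CPM against 36.1 and 52.9 CPM. The median log2 fold of the list was 0.12. In the WNT list, 10 of 22 genes were measured, and the inhibitor Sfrp1 alone was counted, at 696 and 650 CPM against 262 and 253 CPM. In the FGF list, Fgf10, a ligand that drives epithelial growth, was lower (44.5 and 58.3 CPM against 110 and 238 CPM) and 5 other measured genes were not counted. In the IGF list, Igfbp4 was lower, at 140 and 139 CPM against 348 and 412 CPM, and Igf1 was at 867 and 679 CPM against 383 and 392 CPM, which fell short of 2-fold in mouse 2.

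Of 22 genes of retinoid metabolism and retinoic acid receptors, the pathway that the study examined in HFSCs, 12 were measured in the fibroblasts. Crabp1, a cytoplasmic retinoic acid-binding protein, was lower in members, at 28.6 and 9.25 CPM against 61.3 and 80.9 CPM. No gene of this list was higher, and the median log2 fold was -0.11. The retinoic acid-synthesizing enzyme gene Aldh1a1 was at 47.5 and 132 CPM in members against 70.9 and 94 CPM, and Rarg, a retinoic acid receptor gene, at 40.6 and 33.8 CPM against 44.1 and 38.2 CPM. Cyp26a1 and Cyp26c1, which degrade retinoic acid, and Rxrg were at 0 UMIs in the members of both mice, which allows up to 0.902 and 1.07 CPM for each at 3 UMIs per library.

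Cytokine genes were lower more often than higher in members against other fibroblasts and against Pi16-type cells, where 2 were lower and none higher. Against H19-type cells 2 were lower and 2 higher. Of 12 genes, 10 were measured, and against other fibroblasts Cxcl1, Cxcl13, Ccl2 and Ccl7 were lower and Cxcl14 was higher (median log2 fold -0.74). Ccl7 was at 64.3 and 71.8 CPM against 189 and 157 CPM. Cxcl14, a chemokine abundant in resting fibroblasts and epithelia, was at 595 and 402 CPM against 232 and 163 CPM. Of 8 complement genes, 7 were measured and none was counted. Of 8 genes induced by tissue dissociation, none was counted and the median log2 fold was -0.10, with Fos at 1655 and 1121 CPM in members against 1556 and 1358 CPM. Of 9 cell cycle genes, none was counted: Top2a was at 133 and 46.2 CPM in members against 87.7 and 86.2 CPM, above the other fibroblasts in mouse 1 and below them in mouse 2. Among 11 integrin genes 9 were measured, and the integrin-related secreted gene Itgbl1 was higher (319 and 546 CPM against 109 and 166 CPM). Among 14 neurotrophic and guidance genes 9 were measured, and Sema3e was lower. Of 25 mesenchymal transcription factors, 21 were measured, Meox1 was higher and Osr1 (47.5 and 54.8 CPM against 98.4 and 130 CPM) was lower. The dermal factors Prrx1 (570 and 544 CPM) and Tbx15 (424 and 399 CPM) were within 2-fold of other fibroblasts in each mouse.

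Markers of other skin cells were measured in the members to check the label. Some tendon genes were found: Tnmd (tenomodulin) was at 46.9 and 63 CPM against 10.1 and 21.4 CPM and was counted as higher, and Fmod was at 22.8 and 38.4 CPM against 2.3 and 2.87 CPM, under the level limit. The tendon regulator Scx was at 3.01 and 6.76 CPM, Mkx at 11.7 and 11.7 CPM and Comp at 0 and 0.356 CPM. The whole list of 6 genes summed to 86.9 and 126 CPM in members and 30.9 and 54.6 CPM in other fibroblasts. The 7 cartilage genes summed to 17.7 and 22.4 CPM, with Sox9 the most abundant and Matn1 at 0 in both mice. The adipocyte list of 8 genes summed to 884 and 866 CPM in members and 1533 and 2239 CPM in others, with Lpl the most abundant, Adipoq and Plin4 at 0 in both mice, and Car3, Fabp4 and Pparg lower (4 measured). Fabp4 was at 67 and 62.2 CPM against 170 and 467 CPM. The 4 perineurial genes (Slc2a1, Cldn1, Itgb4 and Lypd2) summed to 46.9 and 45.9 CPM in members and 33.4 and 22.6 CPM in others, higher in members in both mice, with Slc2a1 the most abundant and none at 20 CPM or more on average. The 9 keratinocyte genes summed to 573 and 341 CPM in members and 535 and 368 CPM in others, led by Sfn, with none counted. Skeletal muscle genes summed to 52.9 and 175 CPM against 156 and 160 CPM, led by Acta1. Schwann cell genes summed to 20.7 and 29.2 CPM against 53.6 and 81.8 CPM, melanocyte genes to 217 and 295 CPM against 312 and 523 CPM, endothelial genes to 28 and 16 CPM against 19.7 and 12.8 CPM, and immune genes to 16.5 and 19.9 CPM against 28.5 and 48.6 CPM, with Cd3e at 0 in both mice. Mural and dermal sheath genes summed to 183 and 198 CPM against 186 and 262 CPM, and dermal papilla genes to 142 and 146 CPM against 218 and 395 CPM, with Fgf10 and no other gene of that list counted as lower. The part of such RNA in the differences was not tested.

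Among dermal positions, 5 papillary genes and 6 reticular and hypodermal genes were compared. Col23a1 (10.8 and 14.2 CPM against 22.6 and 42.3 CPM) was lower among 4 measured papillary genes, and the WNT inhibitor Apcdd1 was at 88.7 and 62.2 CPM against 79.6 and 55 CPM. Gpx3, a secreted glutathione peroxidase, was higher among the 6 reticular and hypodermal genes, at 2619 and 2319 CPM against 1227 and 908 CPM, and the list had a median log2 fold of 0.63. Ly6a was at 2152 and 2306 CPM against 1785 and 1317 CPM.

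Most members also carried Pi16 genes. In mouse 1, 251 members (78.7%) passed the step for Pi16, Dpp4 and Sema3c, beside 78.6% of other fibroblasts, and in mouse 2, 188 members (81%) passed it, beside 49.9%. The member shares were alike in the 2 mice while those of the other fibroblasts were not. Pi16, a marker of adventitial fibroblasts, was at 1241 and 691 CPM in members against 1205 and 211 CPM in other fibroblasts. The step for H19, Adam12 and Postn was passed by 24.1% and 34.1% of members and by 43.7% and 65.1% of others.

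Against Pi16-type cells, 69 of 6620 genes were higher in members (1.04%) and 70 were lower (1.06%), with Pi16, Dpp4 and Sema3c left out as well. Of these 69 genes 41 were also among the 79 higher against all other fibroblasts, and the comparisons share the member sums. Col8a1 (22.1-fold), Meox1 (16.1-fold), Hmcn2 (13.3-fold), Frmpd4 (11.4-fold) and Bmp5 (9.21-fold) were again high, and Adamtsl2, Angptl7, Gfra1, Smoc2, Angpt4, Abca8b and Angptl1 followed at 8.32 to 4.54-fold. Fbln7, a cell adhesion fibulin, entered at 83.3 and 72.6 CPM against 8.47 and 14 CPM (7.13-fold). H19 (33.9-fold) and Adam12 (13.1-fold) were also high and are counted among the 69. Cells that passed the H19 step had been kept out of the Pi16-type set, so these 2 values follow from its definition. Lower in members were Akr1c18 (9.66-fold), the vasoconstrictor gene Edn1 (7.44-fold), Nav3 (5.8-fold), Pcdh11x (5.56-fold), Smpd3, a neutral sphingomyelinase gene (5.15-fold), the carboxypeptidase gene Cpz (4.97-fold), the cofactor gene Zfpm2 (4.92-fold), Limch1 (4.66-fold), Efemp1 (4.49-fold) and Igfbp5 (4.23-fold). Smpd3 was at 194 and 73.6 CPM in members against 995 and 382 CPM.

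Several of the list counts given against all other fibroblasts were not met against Pi16-type cells, where the median log2 fold of all measured genes was 0.06. Of the adipocyte list 2 genes were measured, none was lower and the median was 0.05, with Fabp4 at 41 and 41.3 CPM in Pi16-type cells and 67 and 62.2 CPM in members. Of the proteoglycan list 7 were measured and none was higher (median 0.65), with Aspn at 386 and 489 CPM in Pi16-type cells. Of the elastic fiber list 15 were measured, none was higher, Ltbp1 and Efemp1 were lower and the median was -0.20, so that the median turned in sign. The reticular and hypodermal list had a median of 0.19 and level sums, 6186 and 6083 CPM in members and 6333 and 5899 CPM in Pi16-type cells, and Gpx3 was not counted. In the collagen list 4 of 14 measured genes were higher and none was lower (median 0.73). In the matricellular list 6 of 16 measured genes were higher (Mgp, Sparcl1, Tnc, Ccn2, Smoc2 and Fbln7), and in the angiopoietin list 3 of 6 were (Angpt4, Angptl1 and Angptl7).

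Against H19-type cells the differences were more numerous, with 257 of 6755 genes higher in members (3.8%) and 224 lower (3.32%). H19, Adam12 and Postn were left out here as well. Angptl7 was at 0.751 and 0.502 CPM in H19-type cells and 105-fold higher in members, and Col8a1 was 79.6-fold, Adamtsl2 61.1-fold and Angptl1 25.3-fold higher. Bmp5 (23.8-fold), Plxna4 (19.5-fold), the proprotein convertase gene Pcsk6 (18.9-fold), Frmpd4 (17.5-fold), the matricellular gene Ccn5 (14.3-fold), Galnt15 (13.2-fold), Hmcn2 (12.2-fold), Gfra1 (12.2-fold) and Tgfbi (10-fold) followed. Pi16 (33.3-fold) and Dpp4 (16.1-fold) follow from the definition of the H19-type set and are counted among the 257. Lower in members were Hc, the gene of complement C5 (25.4-fold), the TIE2 ligand gene Angpt2 (19.6-fold), Car3 (18.6-fold), St6galnac3 (18.2-fold), Dgkb (16.5-fold), Gramd1b (16.4-fold), Shc4 (12.7-fold), Map2 (12.4-fold), the sphingosine phosphate receptor gene S1pr3 (11.3-fold) and Cd36 (11.1-fold). Several of these folds rested on few UMIs: in members Hc had 7 and 10, Angpt2 8 and 8 and Dgkb 6 and 19, and in H19-type cells Angptl7 had 6 and 8. In the 3 comparisons together, 36 genes were higher in members each time, of 79, 69 and 257 called. Among them were Mgp, Angptl1, Col8a1, Hmcn2, Smoc2, Tnmd, Meox1 and Msx1. Of 77, 70 and 224 genes called lower, 10 were lower each time, among them Nav3, Efemp1, Ccl2 and Prdm6. Pi16-type and H19-type cells are parts of the other fibroblasts, and the member sums are the same each time. The 3 comparisons are therefore not separate.

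Members were not uniform. Those with Thbs4 and no Myoc (68 cells in mouse 1, 72 in mouse 2) were set beside those with Myoc and no Thbs4 (185 and 79 cells), over 3380 genes with a mean of 50 CPM or more, again with no test. In the Thbs4 set 21 genes were at least 2-fold higher in both mice (0.621%) and 36 were lower (1.07%). Higher with Thbs4 were fibrillar collagen Col11a1 (114 and 230 CPM against 1.49 and 3.07 CPM), the endothelin receptor gene Ednrb (53.8 and 216 CPM against 2.48 and 5.11 CPM), the contractile genes Mylk, Tagln and Acta2 (137 and 152 CPM against 26.7 and 23.5 CPM), and Tnc (131 and 170 CPM against 16.8 and 11.2 CPM), which encodes the matrix glycoprotein tenascin C. Higher with Myoc were Ecrg4, encoding a secreted peptide precursor (125 and 69.5 CPM against 9.23 and 11.3 CPM), Angptl7 (113 and 114 CPM against 6.15 and 29.5 CPM), the metalloprotease gene Tll1, the synaptic ligand gene Lgi2, the activin and BMP inhibitor gene Fst (338 and 308 CPM against 89.2 and 72.6 CPM), the leptin receptor gene Lepr and Cxcl14 (700 and 720 CPM against 323 and 174 CPM). Angptl1, at 391 and 419 CPM with Thbs4 and 305 and 426 CPM with Myoc, and Smoc2 did not separate the 2 sets. Pi16 did, at 661 and 390 CPM with Thbs4 and 1500 and 987 CPM with Myoc. Hmcn2 was at 821 and 537 CPM with Thbs4 and 225 and 388 CPM with Myoc.

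The contrast was recomputed within the cluster that held most members, described next, which kept 41 and 40 Thbs4 cells and 127 and 64 Myoc cells. These cells are part of the members in which the genes were picked, so meeting the limits again is partly built in. The share of all genes that met the limits in the cluster is not given, and the counts below are a description. Of the 36 genes higher with Myoc, 30 met the same limits there, among them Ecrg4, Angptl7, Tll1, Lgi2, Fst and Lepr. Of the 21 genes higher with Thbs4, 20 kept their direction on average and 8 met the limits, among them Tnc (234 and 254 CPM against 14.2 and 10.2 CPM), Col8a1 (607 and 454 CPM against 66.1 and 73.9 CPM), Fbln7 and Pde4d. Col11a1 did not meet the limits, at 12.3 and 98.8 CPM against 0.837 and 2.55 CPM, values that rested on 4 and 47 UMIs against 1 and 2 UMIs. Ednrb was at 3.08 and 4.2 CPM and Acta2 at 24.6 and 18.9 CPM in the Thbs4 cells of that cluster, so the high values of these 2 genes came from Thbs4 members elsewhere.

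**Figure D4:**
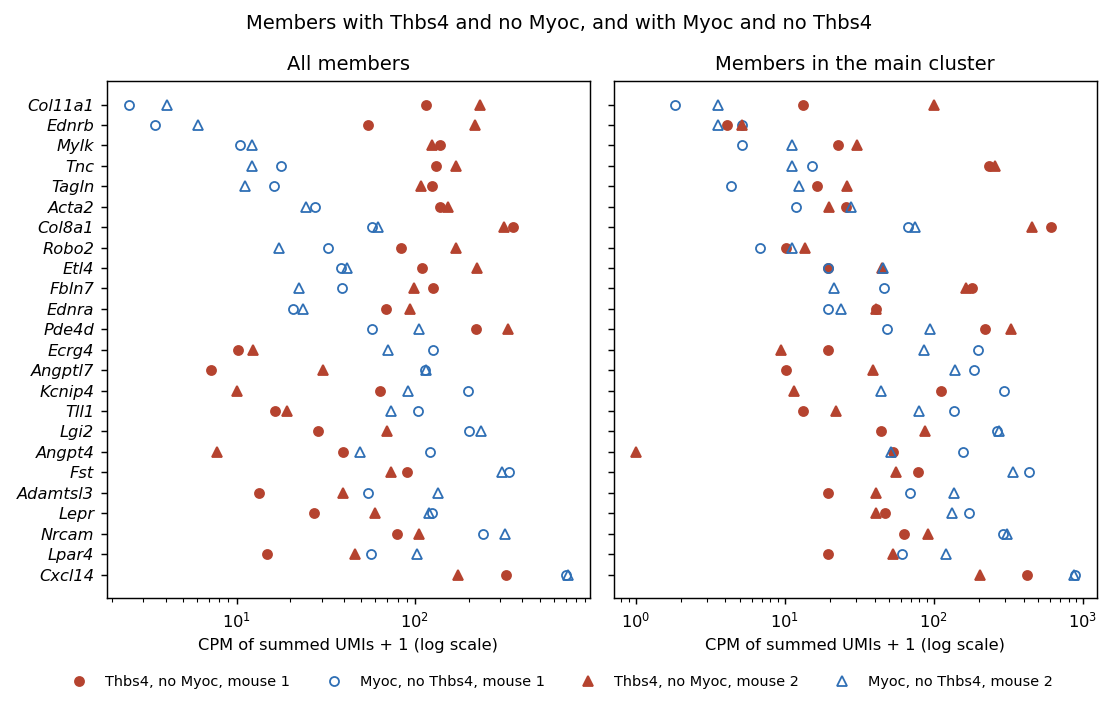
CPM of summed UMIs plus 1 (log scale) for the 12 genes with the highest and the 12 with the lowest ratio between members with Thbs4 and no Myoc (filled red) and members with Myoc and no Thbs4 (open blue), in all members (left) and in the main cluster (right); circles are mouse 1 and triangles mouse 2. Tnc and Col8a1 stay apart on the right, and Ednrb, Robo2 and Etl4 do not.

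All 10055 fibroblasts were clustered with the rule genes left out of the variable genes, which gave 25 clusters. One cluster, number 8, held 376 of the 551 members (68.2%, exact Clopper-Pearson 95% interval 64.2 to 72.1%), 67.4% of those in mouse 1 and 69.4% in mouse 2, although members were 5.48% of the fibroblasts. Members were 43.1% of its 873 cells. Of its cells that were not members, 171 in mouse 1 and 110 in mouse 2 had 3 or more trio UMIs from a single gene, and 74 and 28 had none. Those non-members had Angptl1 at 297 and 343 CPM and Hmcn2 at 231 and 267 CPM, between the members of the cluster (505 and 631 CPM, and 570 and 868 CPM) and all other fibroblasts (58.2 and 52.6 CPM, and 33.8 and 48.1 CPM). Fibroblasts with 3 or more Cilp UMIs and neither Thbs4 nor Myoc fell in this cluster in 41.8% and 39% of cases, with Mfap4 at 1256 and 1290 CPM, above the 1033 and 759 CPM of members, and Meox1 at 19.7 and 11.7 CPM, below the 57.1 and 74.3 CPM of members.

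The other members were spread over clusters with different leading genes. Cluster 25 had 47 cells, of which 16 were members (34%), 2 in mouse 1 and 14 in mouse 2. Their UMIs, summed over both mice, held Thbs4 at 1142 CPM and Myoc at 1132 CPM with Cilp at 20.8 CPM, Hmcn2 at 10.4 CPM and Angptl1 at 62.3 CPM, whereas members in cluster 8 held Cilp at 1276 CPM and Hmcn2 at 719 CPM. They also held Cldn1 at 145 CPM and Itgb4 at 166 CPM, against 4.73 and 2.89 CPM in cluster 8, along with Lypd2 at 72.7 CPM (4.73 CPM in cluster 8), Spp1 at 509 CPM and Smoc2 at 2337 CPM. Cldn1 (claudin 1), Itgb4, Lypd2 and Slc2a1 (41.5 CPM) are known from perineurial cells, which sheathe nerve fascicles. In mice 1 and 2, Lypd2 rested on 0 and 7 UMIs and Slc2a1 on 1 and 3. The cluster is left unnamed because its leading genes are Apod, Tenm2, Cp, Smoc2 and Spp1. Cluster 4, with 41 members, was led by Cst6, Fabp5, Krt25, Lgals7 and Sfn, epithelial genes for the most part, and 33 of these members were from mouse 1 and 8 from mouse 2. They held Krt25 at 501 and 163 CPM, Sfn at 448 and 490 CPM, Cilp at 402 and 746 CPM and Hmcn2 at 304 and 642 CPM, so their Krt25 was lower and their Cilp and Hmcn2 higher in mouse 2. Cluster 17, with 15 members, was led by Ednrb, Adamts18, Col11a1 and Acta2, cluster 7 (26 members) by Lepr, Cxcl1 and Hpgd, and cluster 16 (17 members) by Cdh4, Ndufa4l2 and S100a4. Members outside cluster 8 had Meox1 at 21.1 and 25.3 CPM and Mgp at 187 and 500 CPM, while those inside had 83.9 and 97.8 CPM and 846 and 924 CPM.

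Scrublet called 36 members in mouse 1 (11.3%) and 8 in mouse 2 (3.45%) as doublets, beside 7.68% and 2.65% of other fibroblasts. With those cells left out, 85 genes were higher and 87 lower in members than in other fibroblasts, including 77 of the 79 and 69 of the 77 counted above. With 2 clusters rich in keratinocyte genes left out, a choice made after seeing the data, 85 were higher and 76 lower, including 77 of the 79 and 68 of the 77.

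**Figure D5:**
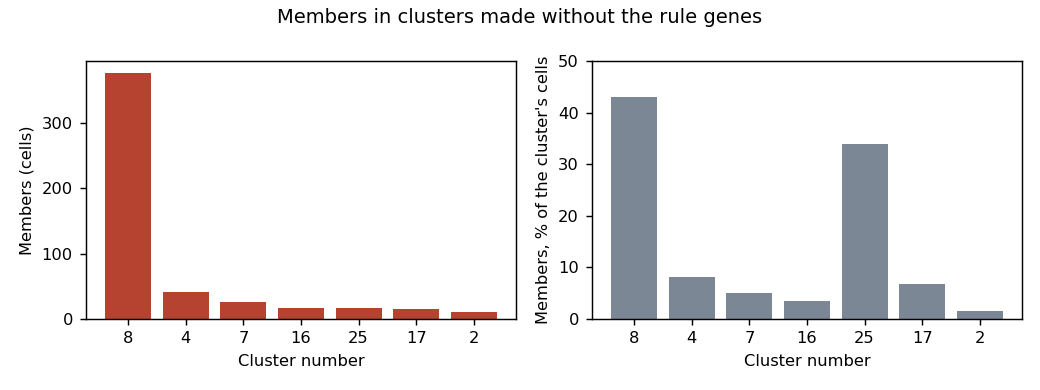
Number of members (left) and members as a percentage of the cluster's cells (right) for the 7 clusters with 10 or more members, made without the rule genes. Cluster 8 holds 376 members at 43.1% of its cells, and the small cluster 25 reaches 34% with 16 members.

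Fibroblasts that the interferon step had removed were split by the same trio step, to describe the same genes in cells that were not members. Of 617 such cells in mouse 1, 19 passed the trio step (3.08%, 1.86 to 4.77%), and of 2620 in mouse 2, 132 did (5.04%, 4.23 to 5.95%). Against interferon cells that failed the trio step, the 79 genes higher in members were above 1-fold for 79 in mouse 1 and 78 in mouse 2, beside 47.9% and 43.9% of all genes, and at least 2-fold higher for 56 (70.9%) and 54 (68.4%), beside 3.14% and 1.25% of all 6724 genes. The 77 lower genes were below 1-fold for 61 in mouse 1 and 72 in mouse 2, beside 52.1% and 56.1% of all genes, and at least 2-fold lower for 34 (44.2%) and 31 (40.3%), beside 7.15% and 1.04% of all genes. Hmcn2 was at 266 and 233 CPM against 15.1 and 17.7 CPM, Col8a1 at 70.7 and 144 CPM against 10.4 and 7.22 CPM and Angptl1 at 237 and 296 CPM against 63 and 73.5 CPM. Bmp5 and Meox1 rested on 2 and 6 UMIs in the 19 cells of mouse 1 and were at 68.9 and 63.8 CPM in mouse 2. These cells come from the same 2 libraries and were picked by the same 3 genes, so they hold no further animal. The 79 and 77 genes were counted in a contrast made by the same trio step, so these values are a description and no separate support.

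The genes whose UMIs ran most closely with the summed trio over single fibroblasts were all matrix or secreted products. Over 5643 and 3640 fibroblasts thinned to 3000 UMIs, the highest Spearman rho in both mice were those of Angptl1 (0.30 and 0.38), Mfap4 (0.40 and 0.29), Col8a1 (0.28 and 0.28), Hmcn2 (0.33 and 0.28), Ltbp4, Gas6, Smoc2, Itgbl1, Adamtsl2 and Mgp (0.27 and 0.23). Gas6, a ligand of TAM receptors, was the 1 gene of the 10 not counted as higher. The lowest were Postn (-0.24 and -0.33), Nav3, Fn1, Efemp1 and Igfbp4. The points share library and depth, and the rule used the trio in these same cells.

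At equal depth the markers were found in a minority of other fibroblasts. Angptl1 was seen in 62.4% and 66.8% of members, 14.5% and 12.1% of other fibroblasts and 1.56% and 0.694% of keratinocytes, Mgp in 50.6% and 51.3%, 15% and 19%, and 5.21% and 6.94%, and Hmcn2 in 49.7% and 56%, 6.49% and 10.2%, and 2.08% and 0.694%. At full depth the member shares were 83.7% and 84.5% for Angptl1, with median depths of 9507 and 11506 UMIs in members. Col8a1 was seen in 24.2% and 29.7% of members and in 1.76% and 2.17% of other fibroblasts, but in 11.5% and 5.56% of keratinocytes, so its share in other fibroblasts lay below that in keratinocytes. Smoc2 was seen in 63.1% and 60.8% of members, in 17.6% and 19.7% of other fibroblasts and in 16.1% and 24.3% of keratinocytes, so its share in other fibroblasts was near that in keratinocytes. Keratinocytes were therefore not used as a blank for either gene, and the part of background in other fibroblasts was not tested. Among the other fibroblasts, those in cluster 8 held Col8a1 at 80.6 and 47.1 CPM, against 8.4 and 7.07 CPM in all of them. For Smoc2 these values were 439 and 256 CPM against 87.9 and 89.9 CPM. Keratinocytes had median depths of 7006 and 10288 UMIs.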

How the data were processed

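The authors deposited whole-number UMI counts per gene and barcode, from 10x Genomics 3′ libraries of dissociated back skin, sorted according to the study's methods, 1 library for each of 2 mice. Per the labels, Cell Ranger 7.0.1 and the mm10 (GRCm38) genome were used; the file headers name cellranger-7.0.0. Doublet and free RNA removal described in the study's methods are not reflected in these counts. Depth was 145318618 and 167258677 UMIs in mice 1 and 2, and 1 library per animal limits the precision.

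Cells were gated as the report states, and UMIs were summed per mouse and class and expressed as CPM, with a sum of 0 set to 3 UMIs in a fold. Genes with a mean of 20 CPM over 4 sums entered the counts, and genes of the rule were left out. No test was made, since the cells were chosen by these values. The members, lists and rules were chosen with earlier results of these data known. Named genes were the 15 highest and 10 lowest folds of each comparison at 50 CPM or more on the higher side, fixed lists, markers, the 10 most abundant genes and the 10 most like the trio. Genes named for members with Thbs4 or Myoc, and the clusters' leading genes, were chosen after their values were seen, as was the keratinocyte collagen limit of 0.5%.

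Fibroblasts were clustered in scanpy 1.11.5 (2000 variable genes, 30 principal components, 15 neighbors, Leiden resolution 1), and doublets were called with Scrublet and kept. Cells were thinned to 3000 UMIs for shares and correlations, which left out 5 members in mouse 1 and 0 in mouse 2, and 244 and 523 other fibroblasts. TMM factors came from edgeR 4.0.16. The counting script was tested on simulated data. Promoter sequences are from RefSeq (GRCm38.p6). One gene of the fixed lists is not reported here.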

Additional observations from a re-analysis of the deposited data

How the results depend on the processing

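The counts of genes against other fibroblasts, Pi16-type and H19-type cells stayed within 1.5 times their reported values under TMM scaling, a total without rule and mitochondrial genes, thinning, members at 5 or at 2 trio UMIs, the stricter cell filter, doublet removal and removal of 2 keratinocyte-gene clusters. With comparison cells at 0 trio UMIs, 110 genes were higher against Pi16-type cells and the other 3 counts stayed within that range. With no filter on low values, 476 genes were higher and 404 lower than in other fibroblasts, 455 higher than in Pi16-type and 982 higher than in H19-type cells. At 100 CPM or more these were 30, 27, 20 and 99, and at 1.5-fold 195, 171, 154 and 490, as the construction of these settings implies. With mouse 1 or mouse 2 left out, 99 to 160 genes were higher and 120 to 168 lower than in other fibroblasts, 102 to 148 higher than in Pi16-type and 349 to 354 higher than in H19-type cells, since 1 mouse then sets the limits. Applying the rule after thinning left 183 members in mouse 1 and 130 in mouse 2, or 3.29% and 3.63% of the fibroblasts. A collagen share of at least 5% left 50 and 86, or 3.61% and 5.1%. The reported shares were 5.41% and 5.57%. The share of members in the main cluster was 70.4% at resolution 0.5 and 69.9% with 15 components. No log2 fold of a counted gene changed sign under the settings that recomputed it, which leaves out the rule after thinning, the 5% collagen share and the clustering settings. Of 4521 log2 folds of 411 genes under the alternatives, 4044 moved by no more than the SD between mice. Leaving out mouse 1 or mouse 2 could not fail either of these checks. A counted gene goes the same way in both mice, and the shift from leaving out a mouse is always within that SD. The scalings put the median of all genes at -0.03 to -0.04. Each fold compares members and other cells within a mouse, so the values are paired by mouse, and no test, paired or unpaired, was made. Depth limits genes under 20 CPM, and 1 library per mouse leaves animal and library inseparable.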

Other observations

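In cultured HFSCs, 449 and 208 cells with 11663442 and 4112464 UMIs, Thbs4 and Cilp were at 0 UMIs in both libraries, which allows up to 0.257 and 0.729 CPM, and Myoc was at 1 UMI in the first and 0 in the second.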
